A study of Mus musculus with 3 samples.

Results

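Mouse colon organoids treated with interferon-γ (IFN-γ) for 24 h were compared with untreated organoids gene by gene. The comparison takes in all genes with at least 50 unique molecular identifiers (UMIs, tags that mark single captured transcripts) summed over the 2 libraries. These were 14230 of the 32285 genes in the files, and they held 99.9% of the UMIs of both libraries. Organoids are cultures of epithelial cells that grow in a basement membrane matrix from isolated crypts, here of mouse colon. Per the study's methods they were kept in full medium, which holds the growth factors that maintain stem and progenitor cells, and the treated cultures received 50 ng/ml of mouse IFN-γ. Both groups were dissociated in the same way, and dead cells were removed by sorting on DAPI before capture in droplets with a 3' kit. Each condition has 1 library, so no test between samples was possible, no p-value is given, and the difference between the conditions cannot be told apart from a difference between the 2 library preparations. All intervals are 95% intervals and cover counting error only.

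IFN-γ is made by activated T cells and natural killer cells. It binds a receptor formed by Ifngr1 and Ifngr2, whose kinases Jak1 and Jak2 pass the signal on to the nucleus. There it acts through GAS elements in DNA and turns on genes such as Irf1, whose product acts with others on ISRE elements. The genes that respond load antigen onto MHC molecules, restrict pathogens inside cells, attract T cells and sensitise epithelial cells to death.

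After filtering, 1058 untreated cells and 917 cells at 24 h were left, of 4909 filtered cells in the whole series, and 1 barcode was shared between the 2 libraries. The untreated cells held 49801935 UMIs with a median of 33550 per cell, and the 24 h cells held 71077817 with a median of 68784. The 12 epithelial markers, among them Epcam and Cdh1, were all measured and summed to 1.21% of UMIs in untreated cells and 0.889% at 24 h. None of 22 immune markers reached 50 UMIs, and Ptprc, Cd4 and Ifng had no UMI in either library. Of 15 stromal markers 2 passed, Pdgfrb and Acta2, while Col1a1, Col1a2 and Col3a1 had no UMI. The list of stromal markers summed to 3.03 counts per 1000000 UMIs of the library (CPM) in untreated cells and 11.8 CPM at 24 h, of which Acta2, an actin of smooth muscle and myofibroblasts, had 42 and 774 UMIs. Of 8 endothelial markers 3 passed, each at least 2-fold lower and none above 3.39 CPM.

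The cells fell into 2 kinds by the share of their UMIs in ribosomal protein genes, and the mix differed between the libraries. With a limit of 16%, chosen after the data were seen, 561 of 1058 untreated cells and 234 of 917 cells at 24 h (25.5%) lay below it. The cells below the limit were shallower, with a median of 15226 UMIs against 65231 above it in the untreated library. They also had more mitochondrial UMIs, with a median of 9.59% against 3.21%. In the 24 h library the same medians were 13643 and 82561 UMIs, and 8.55% and 1.85% mitochondrial UMIs. Within 2 percentage points of the limit lay 44 untreated cells above and 46 below it, and 22 and 37 cells at 24 h. Values within the classes are given beside a number of the lists and genes whose values moved, and what sets the mix was not tested. In sums over cells, fewer cells of a type and less RNA per cell cannot be told apart.

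Most genes differed by less than 2-fold. At 24 h, 422 genes (2.97% of those tested) were at least 2-fold higher and 2826 genes (19.9%) were at least 2-fold lower. Counts of higher and lower members of gene lists are to be read against these shares. At least 8-fold higher were 130 genes (0.914%), of which 70 were at least 32-fold higher, and 215 genes (1.51%) were at least 8-fold lower. The counting interval lay wholly past 2-fold for 308 of the higher and 1905 of the lower genes. These counts include 17 higher genes without an untreated UMI and 3 lower genes without a 24 h UMI. Such genes have no interval and were counted by their value against a floor of 3 UMIs. The median log2 ratio of all genes was -0.38, so the scale is not centred on the typical gene. TMM scaling raised every log2 ratio by 0.37, so that 741 genes were at least 2-fold higher and 1800 lower. The medians of gene lists are given as log2 ratios, and adding 0.38 to one gives its distance from the all-gene median. The same counts were 444 and 1699 of 13427 genes within the cells above the ribosomal limit, and 375 and 974 of 11935 genes within those below it.

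The share of lower genes was largest among genes of low abundance, but lower genes outnumbered higher ones at all abundances. Of 2669 genes with a mean under 2 CPM, 46.1% were at least 2-fold lower, and of 771 genes at 200 CPM or more, 4.15%. The median log2 ratio of those 771 genes was 0.17. The all-gene median and shares are therefore a poor match for lists of abundant genes. Among the 3597 genes averaging 50 CPM or more, 75 (2.09%) were at least 2-fold higher and 222 (6.17%) lower, with a median of -0.09. Higher genes were also found at all abundances, with 5.21% of genes under 2 CPM and 3.11% at 200 CPM or more. Of the 422 higher genes, 83 had fewer than 10 untreated UMIs. Such genes reached the minimum of 50 UMIs only through the 24 h library, so they could only come out higher. Likewise, lower genes with fewer than 10 UMIs at 24 h, such as Hsd3b2 (100 and 1 UMIs), reached it only through the untreated library. They could only come out lower.

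**Figure D1:**
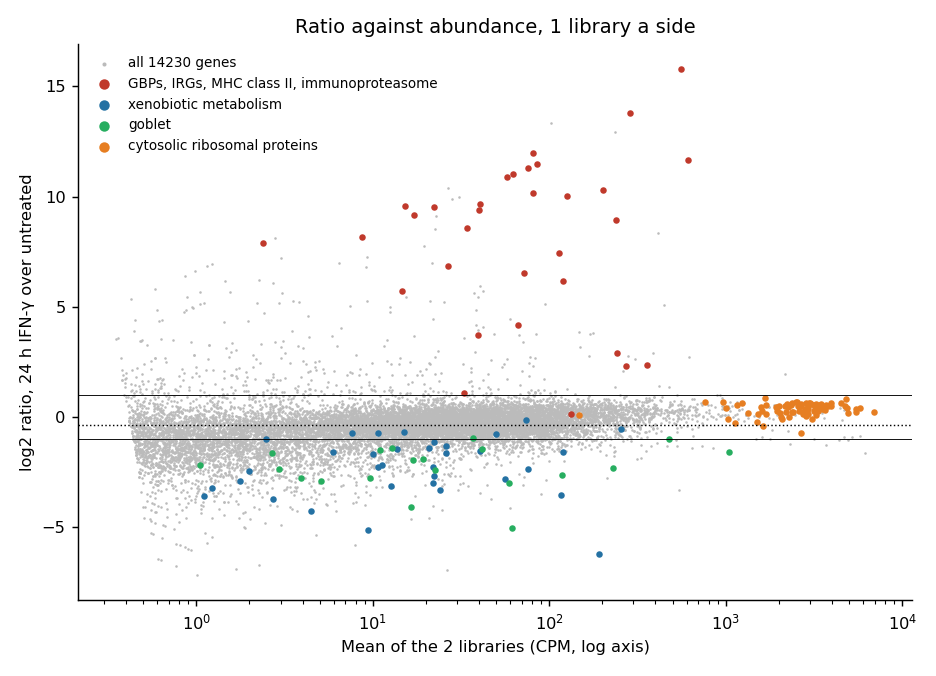
Each point is 1 of 14230 genes, with its mean over the 2 libraries in CPM on a log axis and its log2 ratio of 24 h IFN-γ over untreated; solid lines mark 2-fold and the dotted line the all-gene median of -0.38. Interferon-induced families (red) lie above the upper line apart from Ifi30, and xenobiotic (blue) and goblet genes (green) lie mostly below the lower line. The abundant ribosomal protein genes (orange) lie between the lines.

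The highest ratios were those of the GTPases that attack vacuoles of intracellular microbes, of antigen presentation and of CXCR3 chemokines. Iigp1, an immunity-related GTPase, went from 1 UMI in the untreated cells to 79816 at 24 h, or from 0.0201 to 1123 CPM (log2 ratio 15.77, interval 13.29 to 21.08). Gbp2, a guanylate-binding protein, had 2 UMIs untreated and 40550 at 24 h (log2 ratio 13.79, interval 11.94 to 16.84). Ido1, the enzyme that starts the breakdown of tryptophan, had 1 and 14629 UMIs (13.32, interval 10.85 to 18.63). These genes were near silent in the untreated library, so the sizes of their ratios rest on 1 or 2 molecules while their levels at 24 h are well measured. Cxcl9, a chemokine that attracts T cells, was at 0.0602 CPM untreated and 473 CPM at 24 h (3 and 33624 UMIs, log2 ratio 12.94). Cxcl10, which binds the same receptor, was at 2.55 and 824 CPM (127 and 58583 UMIs, log2 ratio 8.34, interval 8.09 to 8.60).

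Among genes averaging 50 CPM or more, the remainder of the 15 highest ratios were those of Cd74, H2-Ab1, H2-Aa and H2-Eb1 of the MHC class II pathway, Gbp4, the immunity-related GTPases Gm4951, Ifi47 and Igtp, the ubiquitin-like modifier Ubd, and the proteasome subunit Psmb8. Gm4951, H2-Aa and Gbp4 had no UMI in the untreated library. Against a floor of 3 UMIs per library they were at least 2836-fold, 2516-fold and 2079-fold higher at 24 h, with 12144, 10774 and 8903 UMIs. The ratio of Iigp1 was 15.33 within the cells above the ribosomal limit and 12.75 within those below it, that of Gbp2 was 14.38 and 13.13, and that of Cxcl10 was 8.69 and 7.25. Cxcl9 was at 12.59 above and 9.80 below the limit, and Cd74 was at 12.34 and 10.34. Iigp1 had 1 untreated UMI in all and Cxcl9 had 3, so their class values rest on a few molecules. In a class without an untreated UMI the value is a lower bound against the floor, as it must be for Iigp1 in 1 class. A smaller ratio of such genes in a class is therefore no sign of a lower level at 24 h. Over the 15 genes, with such bounds included, the ratios below the limit ran from 7.25 to 13.13.

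**Figure D2:**
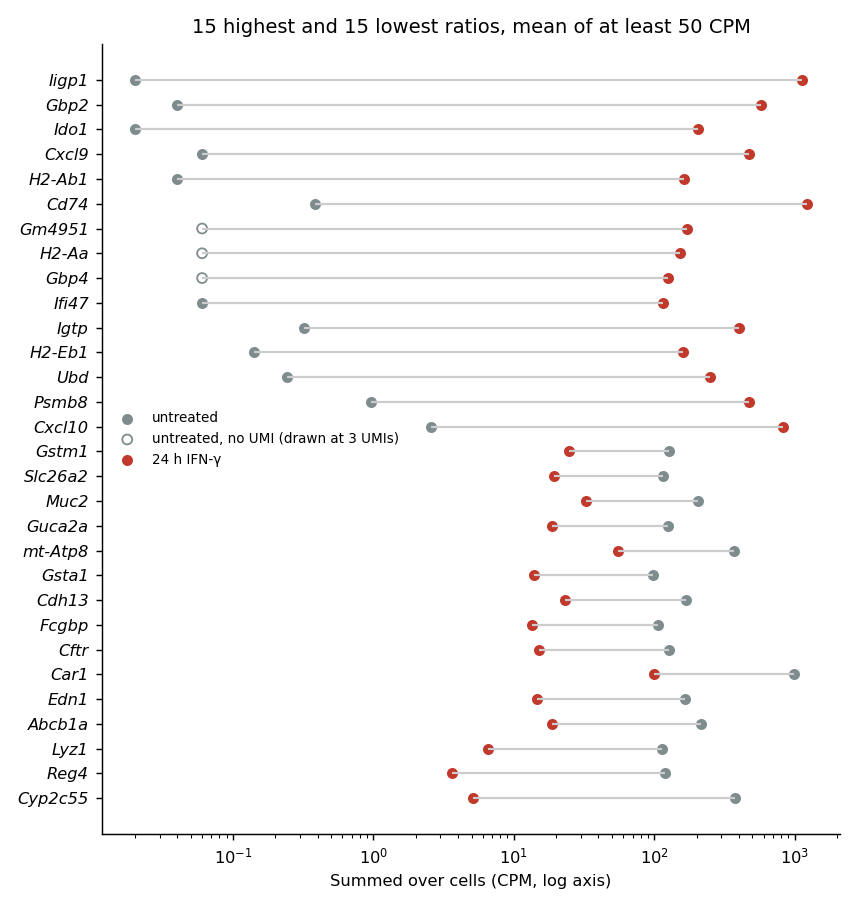
Level in the untreated library (grey) and at 24 h (red) in CPM on a log axis for the 15 genes with the highest and the 15 with the lowest log2 ratio among genes averaging 50 CPM or more; open points mark genes with no untreated UMI, drawn at the floor of 3 UMIs. The upper 15 genes sit at or below 2.55 CPM untreated and between 115 and 1220 CPM at 24 h, and the lower 15 genes sit between 98.0 and 986 CPM untreated.

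The promoters of 4 of these genes are shown because they hold elements of the kinds through which interferons are known to act. The sequences run 5′ to 3′ on the gene's strand up to the base before the annotated start, from RefSeq on GRCm38.p6. Capitals mark matches to TTCNNNGAA (GAS) or GAAANNGAAA (ISRE) on either strand.

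Gbp2: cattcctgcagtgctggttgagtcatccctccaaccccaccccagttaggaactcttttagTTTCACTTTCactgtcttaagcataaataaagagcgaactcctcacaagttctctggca

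Igtp: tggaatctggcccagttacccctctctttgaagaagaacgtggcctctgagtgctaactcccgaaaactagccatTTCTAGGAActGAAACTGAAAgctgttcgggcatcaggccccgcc

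Psmb8: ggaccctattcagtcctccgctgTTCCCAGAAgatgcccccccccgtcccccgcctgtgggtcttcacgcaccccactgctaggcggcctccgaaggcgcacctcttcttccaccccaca

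Cxcl10: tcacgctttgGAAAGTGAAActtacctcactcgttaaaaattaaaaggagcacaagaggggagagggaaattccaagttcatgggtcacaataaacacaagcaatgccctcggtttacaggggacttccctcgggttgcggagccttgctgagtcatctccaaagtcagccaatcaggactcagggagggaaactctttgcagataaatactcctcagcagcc

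The Gbp2 window is chr3:142620543-142620662 on the plus strand and holds an ISRE on the opposite strand, 59 bases before the start. The Igtp window is chr11:58199436-58199555 on the plus strand and holds a GAS and an ISRE next to each other, 45 and 34 bases before the start. The Psmb8 window is chr17:34198075-34198194 on the plus strand with a GAS 97 bases before the start, and the Cxcl10 window is chr5:92348890-92349112 on the minus strand with an ISRE 213 bases before the start. These starts are those of RefSeq. GENCODE places the start of Psmb8 at 34197721, so that its window lies inside the gene by that annotation. The GENCODE start of Gbp2, at 142620602, lies within the Gbp2 window just before the marked ISRE. By that annotation this ISRE lies inside the gene. Of the 15 genes with the highest ratios, 9 had a RefSeq promoter entry, of which 2 held a GAS and 3 an ISRE in the window from 250 bases before to 50 after the start.

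The motifs were counted in the same window of all genes with an entry. Among 88 genes at least 8-fold higher, 30.7% held an ISRE and 21.6% a GAS, and 39.8% held either. Among 210 genes 2-fold to 8-fold higher these shares were 17.1%, 11.4% and 26.7%. Genes between the limits had 3.20% and 8.29%, genes at least 2-fold lower had 3.59% and 7.98%, and all 10692 promoters of genes tested had 3.77% and 8.41%. The shares for the lower genes thus lay near those of all promoters. A match is a description of letters and no sign of binding.

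All 9 measured guanylate-binding proteins, large GTPases that coat and lyse microbial vacuoles, were at least 2-fold higher, with log2 ratios from 5.73 for Gbp8 to 13.79 for Gbp2. Their median was 8.18 (Gbp10, without an untreated UMI, at its lower bound), or 8.56 above the all-gene median. The family went from 3.75 to 1263 CPM in sum. Gbp2, Gbp3, Gbp4, Gbp6, Gbp9 and Gbp10 reached the UMI minimum only through the 24 h library, so they could only come out higher. All 9 measured immunity-related GTPases were also higher, with a median of 9.56 (genes without an untreated UMI at their lower bound) and a range from 4.17 for Irgm1 to 15.77 for Iigp1. The same limit holds for Iigp1, Gm4951, Ifi47, Tgtp1, Tgtp2 and F830016B08Rik. Irgm1, which regulates the other members, had most of the family's untreated UMIs (349 UMIs, 7.01 CPM) and was at 126 CPM at 24 h. Tgtp1 and Tgtp2 are near-identical copies, as are H2-Q6 and H2-Q7 and some Gbp genes, so the split of UMIs between such copies is uncertain. Gbp2b had no UMI in either library.

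Of 8 measured genes of the MHC class II list, 7 were at least 2-fold higher, with a median log2 ratio of 9.91. Cd74, the invariant chain that escorts class II molecules, was at 0.382 CPM untreated and 1220 CPM at 24 h (19 and 86707 UMIs, log2 ratio 11.64). The α and β chains H2-Aa, H2-Ab1 and H2-Eb1 had 0, 2 and 7 untreated UMIs and 152, 162 and 161 CPM at 24 h. These chains, H2-DMb1 (5 and 5743 UMIs, log2 ratio 9.65) and Cd74 reached the UMI minimum only through the 24 h library. The chains and H2-DMb1 could therefore only come out higher. H2-DMa, which helps to load peptide, was already at 5.50 CPM in untreated cells and reached 73.4 CPM. The lysosomal thiol reductase Ifi30 was the exception, with 128 and 139 CPM (log2 ratio 0.12). H2-Oa and H2-Ob, the subunits of the modulator of H2-DM, had no UMI in either library. Ciita, the coactivator that is the master switch of class II genes, went from 6 to 3195 UMIs (log2 ratio 8.54, interval 7.42 to 9.99). It also reached the UMI minimum only through the 24 h library.

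The class I pathway was present in untreated cells and was higher by less. Of 17 measured genes, 13 were at least 2-fold higher and 4 lay between, with a median of 2.28. H2-K1 was at 268 and 680 CPM (log2 ratio 1.34, interval 1.31 to 1.37) and H2-D1 at 229 and 603 CPM (1.40). B2m, the light chain shared by class I molecules, was at 71.9 and 487 CPM (2.76). Tap1 and Tap2 form the peptide transporter, and Tap1 was at 5.30 and 183 CPM (5.11) while Tap2 had 100 and 995 UMIs. The general chaperones of the pathway stood out by their small ratios, at 0.37 for Calr, -0.04 for Canx and 0.24 for Pdia3. Nlrc5, the class I counterpart of Ciita, went from 0.341 to 42.8 CPM (log2 ratio 6.97).

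The immunoproteasome is a form of the proteasome in which 3 inducible subunits replace constitutive ones. Psmb8, Psmb9 and Psmb10 had log2 ratios of 8.94, 6.17 and 2.92, and reached 474, 235 and 429 CPM at 24 h. The constitutive subunits that they replace, Psmb5, Psmb6 and Psmb7, had ratios of 0.37, 0.59 and 0.18, so they were not lower on this scale. The activator subunits Psme1 and Psme2 were at 117 and 92.4 CPM untreated and at 600 and 455 CPM at 24 h. Over the 16 constitutive proteasome genes none was 2-fold higher or lower, and the median was 0.60, or 0.99 above the all-gene median, with a positive sign in every alternative. All genes averaging 200 CPM or more had a median of 0.17.

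Among the parts of the pathway itself, the receptor chains were lower and the feedback inhibitor Socs1 was higher. Ifngr1 was at 149 and 75.2 CPM (log2 ratio -0.99) and Ifngr2 at 76.5 and 34.6 CPM (-1.15). The kinases Jak1 and Jak2 had ratios of -0.36 and -0.02, near or above the all-gene median. Stat2 went from 9.78 to 38.8 CPM (1.99). Socs1, which blocks the receptor kinases, went from 1.29 to 79.2 CPM (5.95, interval 5.59 to 6.32), while Socs3 and Cish had ratios of 0.23 and -0.12. Of the 14 genes of this list 3 were 2-fold higher and 1 lower. The list median of -0.05 turned positive with TMM and median-of-ratios scaling, by mean over cells, in the depth band and within both ribosomal classes, and stayed above the all-gene median throughout.

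Of 15 measured transcription factors of the interferon response, 11 were at least 2-fold higher, with a median of 2.66. The highest was Ciita (8.54), which with 6 untreated UMIs reached the UMI minimum only through the 24 h library and could only come out higher. Irf1 was at 23.5 and 331 CPM (3.82), Irf8 at 43.1 and 295 CPM (2.77) and Batf2 had 249 and 4318 UMIs (3.60). Irf2, which can oppose Irf1, was at 105 and 75.4 CPM (-0.48). Irf3, which needs no induction, was at 34.0 and 30.6 CPM (-0.15). Of 24 genes that are usually tied to the ISGF3 complex of type I interferon, 17 were at least 2-fold higher, with a median of 2.07, which lay below that of the GTPase families. Isg15 and Ifit2 had ratios of 3.72 and 3.67, but Ifit1 (180 and 214 UMIs, -0.26) and Ifit3 (124 and 202 UMIs, 0.19) differed little. Of 7 ADP-ribosyltransferase genes and partners tied to interferon, 6 were 2-fold higher, led by Parp14 (3.75).

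**Figure D3:**
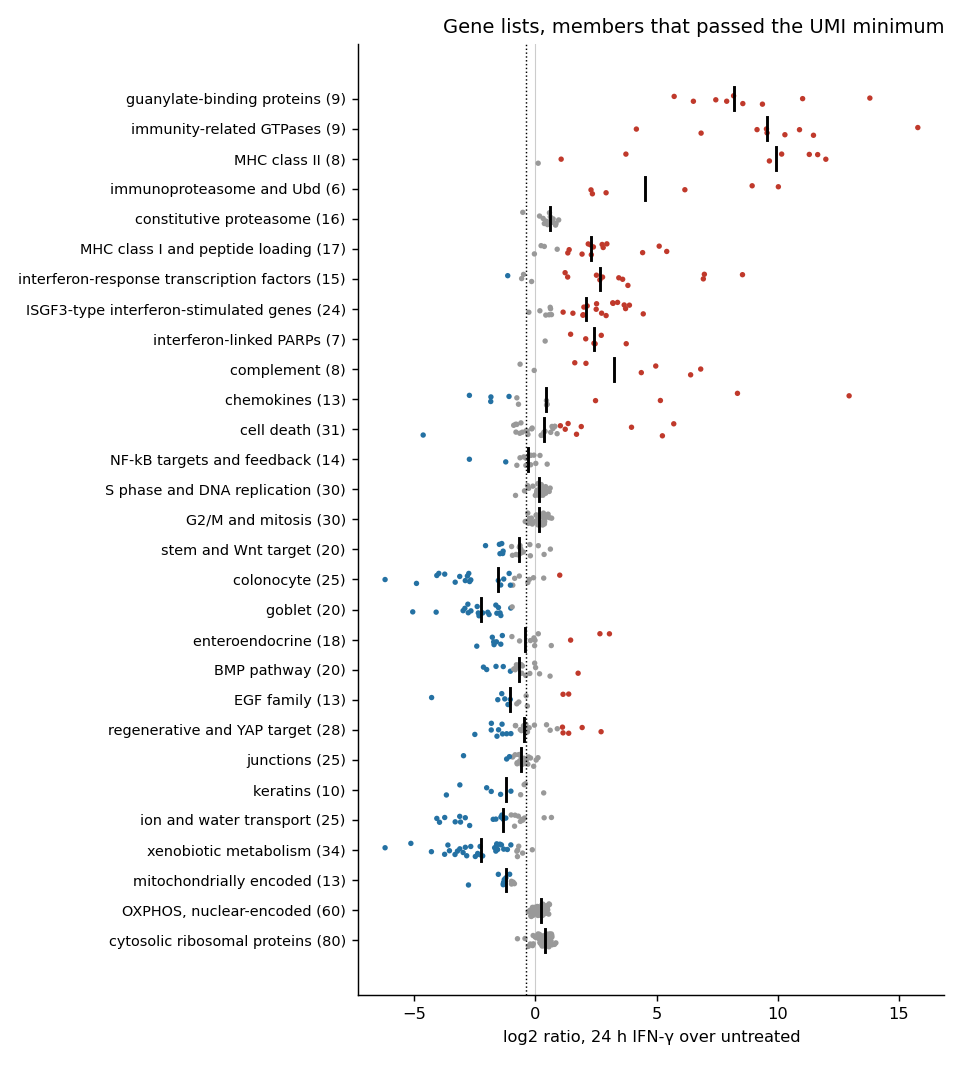
Log2 ratio of 24 h IFN-γ over untreated for the measured members of 29 gene lists (number in brackets); points are genes, red at least 2-fold higher and blue at least 2-fold lower, black bars are list medians and the dotted line is the all-gene median of -0.38. The GTPase, MHC class II and immunoproteasome lists lie farthest to the right, and the goblet and xenobiotic lists, with medians of -2.24 and -2.22, farthest to the left.

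Of 13 measured chemokines 4 were at least 2-fold higher and 4 at least 2-fold lower, against 2.97% and 19.9% of all genes. Cxcl9 and Ccl5, with 3 and 8 untreated UMIs, reached the UMI minimum only through the 24 h library, so they could only come out higher. Cxcl9, Cxcl10, Ccl5 and Ccl2, which attract T cells and monocytes, had ratios of 12.94, 8.34, 5.16 and 2.49. Lower were Ccl20, which draws cells bearing Ccr6 (2.77 and 0.422 CPM, -2.71), the mucosal chemokine Ccl28 (795 and 318 UMIs, -1.84), the neutrophil attractant Cxcl5 (14.7 and 4.14 CPM, -1.83) and Ccl6 (-1.08). None of the 14 measured genes on the list of NF-κB targets and feedback genes was 2-fold higher. The list holds Ccl20 but not Ccl2, Ccl5, Cxcl10 or Icam1 (12.4 and 130 CPM, 3.38), which were higher. It therefore does not speak for NF-κB targets outside it. Tnfaip3, an inhibitor of NF-κB, was at 36.8 and 15.8 CPM (-1.22), and the list median of -0.30 changed sign with TMM scaling, with median-of-ratios scaling and within the cells below the ribosomal limit.

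Of 10 measured genes of tryptophan catabolism and arginine use, 4 were at least 2-fold higher, 3 were lower and 3 lay between. Over all genes 2.97% were higher and 19.9% lower. One of the higher genes was Ido1, which reached the UMI minimum only through the 24 h library and could only come out higher. Wars, the tryptophanyl-tRNA synthetase, was at 84.6 and 526 CPM (log2 ratio 2.64), and Ido2 at 0.341 and 8.24 CPM (4.59). Nos2, the inducible nitric oxide synthase, was at 10.3 and 55.0 CPM (2.42), while Arg1 and Arg2, which compete for its substrate arginine, had 61 and 23, and 68 and 36 UMIs. Checkpoint ligands also differed. Cd274, which encodes PD-L1, was at 1.47 and 73.4 CPM (5.65), Lgals9 at 23.5 and 317 CPM (3.75), and Vtcn1 at 28.8 and 4.74 CPM (-2.60).

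Of 31 measured cell death genes 8 were 2-fold higher, 1 was lower and 22 lay between. The higher genes were Zbp1, a sensor of nucleic acids that triggers necroptosis (1.59 and 83.0 CPM, 5.71), Casp12 (5.24), the death ligand Tnfsf10 (3.97), the receptors Fas (1.90) and Tnfrsf1a (1.70), the necroptosis effector Mlkl (1.35), Bak1 (1.24) and Bid (1.04). Casp12, with 9 untreated UMIs, reached the UMI minimum only through the 24 h library, so it could only come out higher. Casp8, which starts apoptosis downstream of death receptors, was at 81.4 and 108 CPM (0.40). The gene that was lower was Il18, a cytokine released on inflammasome activation, at 31.5 and 1.28 CPM (1568 and 91 UMIs, -4.62). Its caspase, Casp1, was at 49.9 and 80.4 CPM (0.69).

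Of 8 measured complement genes 6 were at least 2-fold higher, but the list summed to 87.7 CPM untreated and 96.1 CPM at 24 h, most of it from Cd55 (67.6 and 43.8 CPM), which protects cells from complement. Serping1, the inhibitor that holds the first component in check, was at 0.161 and 18.2 CPM (6.82) and C4b had 1 and 121 UMIs (6.41, interval 3.90 to 11.72). Serping1, C4b, C1s1 and C1ra reached the UMI minimum only through the 24 h library, so they could only come out higher. Cfb, of the alternative pathway, was at 16.7 and 16.2 CPM (-0.04). Of 17 measured epithelial defence genes 8 were at least 2-fold lower and 3 higher, against 19.9% and 2.97% of all genes. Among them, the acute phase gene Saa1 was at 41.0 and 5.89 CPM (-2.80) and the epithelial oxidase Nox1 at 74.4 and 22.5 CPM (-1.73), while Duoxa2, which matures the oxidase Duox2, was at 2.07 and 5.19 CPM (1.33).

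At the other end, the goblet and xenobiotic lists had the lowest medians. Cyp2c55, a cytochrome P450 of the colon with the lowest ratio among genes averaging 50 CPM or more, was at 376 CPM untreated and 5.15 CPM at 24 h (18729 and 366 UMIs, log2 ratio -6.19, interval -6.34 to -6.04). Of 34 measured genes of xenobiotic metabolism 28 were at least 2-fold lower and none was higher, with a median of -2.22 (-1.84 relative to the all-gene median). Abcb1a, the P-glycoprotein efflux pump, was at 216 and 18.6 CPM (-3.54), and the glutathione transferases Gsta1 and Gstm1 had ratios of -2.83 and -2.37. The median was -1.77 within the cells above the ribosomal limit and -1.57 within those below it, where Gsta1 was at -1.45 and Abcb1a at -2.36.

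Of 25 measured colonocyte genes 17 were at least 2-fold lower and 1 was higher, with a median of -1.52 (-1.14 relative to the all-gene median). Car1, a carbonic anhydrase, was at 986 and 100 CPM (-3.30), Aqp8, a water channel of surface cells, at 41.5 and 2.49 CPM (-4.06) and Guca2a, which encodes guanylin, at 125 and 18.7 CPM (-2.74). Slc26a3, the chloride and bicarbonate exchanger, was at 62.0 and 7.16 CPM (-3.11). Plac8 was the gene that was higher (352 and 708 CPM, 1.01). Krt20, the keratin of terminally differentiated cells, did not go with this group. It was at 21.6 and 27.6 CPM (0.35, interval 0.24 to 0.46), and its ratio was larger within both ribosomal classes than over all cells, at 1.27 above the limit and 1.64 below it. The list median was -1.49 above the limit and -0.70 below it, against all-gene medians of -0.24 and -0.08 in those classes. Below the limit, Car1 was at -1.90, Aqp8 at -2.05 and Guca2a at -3.33.

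Goblet genes, which build and process mucus, were lower almost without exception. Of 20 measured genes 19 were at least 2-fold lower, and the list summed to 0.333% of UMIs untreated and 0.106% at 24 h. In thinned cells its median share was 0.04% untreated and 0.02% at 24 h, and the 95th percentile was 1.89% and 0.524%. Muc2, the main gel-forming mucin, was at 205 and 32.6 CPM (-2.65), Fcgbp at 105 and 13.4 CPM (-2.97), and Reg4 at 120 and 3.62 CPM (-5.05). Agr2, which folds mucins, was at 1570 and 525 CPM (-1.58), and the transcription factors Atoh1 and Spdef had ratios of -1.52 and -1.42. Only Galnt12 lay between the limits (-0.95). The list median was -2.24 over all cells (-1.86 relative to the all-gene median), -2.06 above the ribosomal limit and -3.44 below it, where Muc2 was at -5.25 and Fcgbp at -4.13. Lyz1, a lysozyme, was at 114 and 6.57 CPM (-4.11) and Ang4, an antimicrobial ribonuclease, at 61.9 and 23.2 CPM (-1.42), whereas Retnlb, a goblet cell protein, was at 1.22 and 11.3 CPM (3.21). In cells of 20000 to 60000 UMIs the ratios of Lyz1 and Reg4 were smaller, at -1.05 and -2.42.

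Transport of ions and water was lower in the same direction. Of 25 measured genes 15 were at least 2-fold lower and none was higher, with a median of -1.34 over all cells, -1.17 above the ribosomal limit and -0.96 below it. Cftr, the chloride channel of secreting crypts, was at 128 and 15.1 CPM (-3.08), and its basolateral supplier Slc12a2 at 537 and 215 CPM (-1.32). Atp1b1, a subunit of the sodium pump, had a ratio of -0.56. Pigr, which carries IgA across the epithelium, was at 361 and 106 CPM (-1.77). Edn1, which encodes endothelin 1, and Cdh13, an atypical cadherin, also were among the 15 lowest ratios, at -3.49 and -2.86.

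Stem cell and Wnt target genes lay below the typical gene in the median, but unevenly. Of 20 measured genes 6 were at least 2-fold lower and none was higher, against 19.9% of all genes that were lower, and the median was -0.67 (-0.29 relative to the all-gene median). Lgr5, the receptor that marks crypt base stem cells, was at 151 and 55.2 CPM (-1.45, interval -1.51 to -1.40), Smoc2 at 59.7 and 21.4 CPM (-1.48) and Lrig1, which restrains EGF receptors, at 229 and 88.1 CPM (-1.38). Axin2, a general Wnt target, was at 94.7 and 62.3 CPM (-0.60), and Ascl2, Myc and Cdca7 had ratios of 0.36, 0.62 and 0.13. In the untreated library, shallow cells had more of these transcripts, with a median share of 0.304% for the list in the 265 shallowest cells and 0.148% in the 265 deepest. The Lgr5 ratio was -1.16 within the cells above the limit and -1.08 within those below it.

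Genes of DNA replication and mitosis lay within 2-fold and mostly above the all-gene median. None of 30 genes of S phase and none of 30 of G2/M was 2-fold higher or lower, with medians of 0.17 and 0.14, or 0.55 and 0.53 above the all-gene median. The median of all genes averaging 50 CPM or more was -0.09. Mki67, a marker of cycling cells, was at 441 and 356 CPM (-0.31), and its ratio turned to 0.06 with TMM and 0.08 with median-of-ratios scaling. The median of the G2/M list turned to -0.04 within the cells below the ribosomal limit. Cdkn1a, which encodes the cell cycle inhibitor p21, was at 165 and 227 CPM (0.46), and Cdkn1b at 53.5 and 30.7 CPM (-0.80). The cyclin Ccnd1 was at 272 and 437 CPM (0.68), and the antiproliferative Btg1 at 163 and 58.9 CPM (-1.46). Of these 27 CDK inhibitors, G1 cyclins and p53 targets 4 were lower and none was higher, and the median of -0.27 turned positive with TMM and median-of-ratios scaling.

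Growth factor and niche signals differed by member. Of 20 measured genes of the BMP pathway 1 was at least 2-fold higher and 5 were lower, near the 19.9% of all genes that were lower. Bmp2 was at 18.7 and 9.20 CPM (-1.02, interval -1.17 to -0.88), with -0.80 above and -0.32 below the ribosomal limit. Its targets Id1 and Id3 had ratios of 0.18 and 0.61, and the inhibitory Smad6 one of -1.32. Of 13 measured EGF family genes 7 were lower and 2 higher, against 19.9% and 2.97% of all genes. The EGF family median was -1.03 over all cells, -0.62 above the ribosomal limit and -0.30 below it. Areg was at 131 and 341 CPM (1.38) and Ereg at 4.92 and 10.9 CPM (1.15), while Nrg1 (7.07 and 0.366 CPM, -4.27) and Hbegf (159 and 54.4 CPM, -1.54) were lower. Of 15 genes of Notch signalling and secretory fate 4 were lower and none was higher, which is also near the share of all genes, with Hes1, a target of Notch, at 159 and 40.4 CPM (-1.97) and the ligand Dll4 at 3.03 and 0.647 CPM (-2.23).

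Of 28 measured genes that mark the regenerating epithelium or YAP activity, 5 were at least 2-fold higher and 9 lower. Over all genes these shares were 2.97% and 19.9%. Ly6a, which encodes Sca-1, was at 905 and 3458 CPM (1.93, interval 1.92 to 1.95) and Ly6c1 at 165 and 1081 CPM (2.71). Ly6e was at 274 and 513 CPM (0.91). The YAP targets Ccn1, Ccn2 and Ankrd1 had ratios of -1.35, -2.49 and -1.58, Clu one of -1.37 and Anxa1 one of -0.62. The list median was -0.48 and turned to 0.11 within the cells below the ribosomal limit.

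At least 2-fold lower were 19.9% of all genes, 6.17% of genes averaging 50 CPM or more, and 3 of 25 measured junction genes. None of the junction genes was higher. Their median was -0.57 (-0.18 relative to the all-gene median), with -0.49 above and -0.13 below the ribosomal limit, and the claudins Cldn3 and Cldn7 had ratios of 0.11 and -0.07. Of 10 measured keratins 6 were lower, against 19.9% of all genes. Krt4 was at 44.0 and 5.11 CPM (-3.11), while the abundant Krt8 and Krt18 had ratios of -0.60 and -0.46. The keratin median went from -1.21 above the ribosomal limit to -0.24 below it.

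Metabolic and stress genes mostly lay between the limits. None of 33 genes of sterol and fatty acid synthesis was 2-fold higher or lower, nor were 30 of 31 genes of glycolysis and the TCA cycle, and the signs of both medians (-0.33 and -0.14) turned with TMM scaling. Of 30 genes of the endoplasmic reticulum and unfolded protein response 2 were higher, Trib3 (4.08 and 21.3 CPM, 2.38) and Chac1 (408 and 1778 UMIs, 1.61), which are targets of Atf4. Ern2, a stress sensor of mucous cells, was at 26.7 and 6.88 CPM (-1.96). Of 22 genes that respond to dissociation, 6 were lower, with Fos at 269 and 104 CPM (-1.37), and 1 was higher, the mitochondrial chaperone gene Hspe1 (619 and 1240 CPM). Of 22 replication-dependent histone genes 21 lay between the limits, with a median of 0.10 that turned to -0.08 above the ribosomal limit.

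Enteroendocrine genes, of rare hormone-secreting cells, were mixed, with 3 of 18 at least 2-fold higher and 7 lower. Over all genes 2.97% were higher and 19.9% lower. Pyy, which encodes peptide YY, was at 22.5 and 143 CPM (2.67) and Cck at 0.361 and 3.01 CPM (3.06), while Chgb, a granin of secretory granules, was at 116 and 73.9 CPM (-0.65). In barcodes under 2000 UMIs the order was the opposite, with Pyy at 224 CPM in the untreated library and 91.4 CPM at 24 h, and Cck at 4.19 and 0.515 CPM. The list median was -0.42 over all cells, 2.50 within the cells above the ribosomal limit and -1.05 within those below it. Of 15 tuft markers 4 were measured, among them the tuft regulator Pou2f3 (1.41 and 4.52 CPM, 1.68) and Hpgds (9.86 and 2.46 CPM).

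The genes with the largest differences in CPM were abundant, and most were ribosomal protein genes or mitochondrial transcripts. Of the 10 largest gains, 9 were ribosomal protein genes and 1 was Ly6a. All genes averaging 200 CPM or more had a median of 0.17. None of the 80 measured ribosomal protein genes was 2-fold higher or lower (median 0.42, or 0.80 above the all-gene median). They made up 19.4% of UMIs in untreated cells and 25.1% at 24 h, and their median was 0.25 above and 0.21 below the limit set on their own share. Of the 10 largest losses, 7 were mitochondrial transcripts, with Malat1, Gm42418 and Rps29. Gm42418 was at 5915 CPM in untreated cells and 2874 CPM in cells at 24 h. In barcodes under 2000 UMIs it was far higher, at 33806 CPM untreated and 28311 CPM at 24 h. All 13 mitochondrially encoded genes had ratios from -2.75 for mt-Atp8 to -0.86 for mt-Co3, with a median of -1.21 over all cells, -1.01 above and -0.17 below the ribosomal limit, where mt-Co3 turned to 0.08. The 60 nuclear-encoded genes of oxidative phosphorylation had a median of 0.25 over all cells, 0.12 above and 0.0017 below the ribosomal limit.

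Malat1, an RNA kept in the nucleus, was at 9301 and 3035 CPM (-1.62), and Neat1 at 527 and 183 CPM (-1.53). Malat1 was at -1.25 above the ribosomal limit and at -0.47 below it. Long noncoding RNAs as a class were lower more often than protein-coding genes, with 50.6% of 1721 against 15.6% of 12494 at least 2-fold lower. The shares were 34.5% and 10.1% above the ribosomal limit, and 21.6% and 7.03% below it. The gap was small among genes with a mean under 2 CPM, which held 1016 of the long noncoding RNAs, at 51.4% and 42.8%. It was wider at 2 to 10 CPM (51.8% and 23.9%) and at 10 to 50 CPM (46.2% of 119 long noncoding RNAs and 9.55%).

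**Figure D4:**
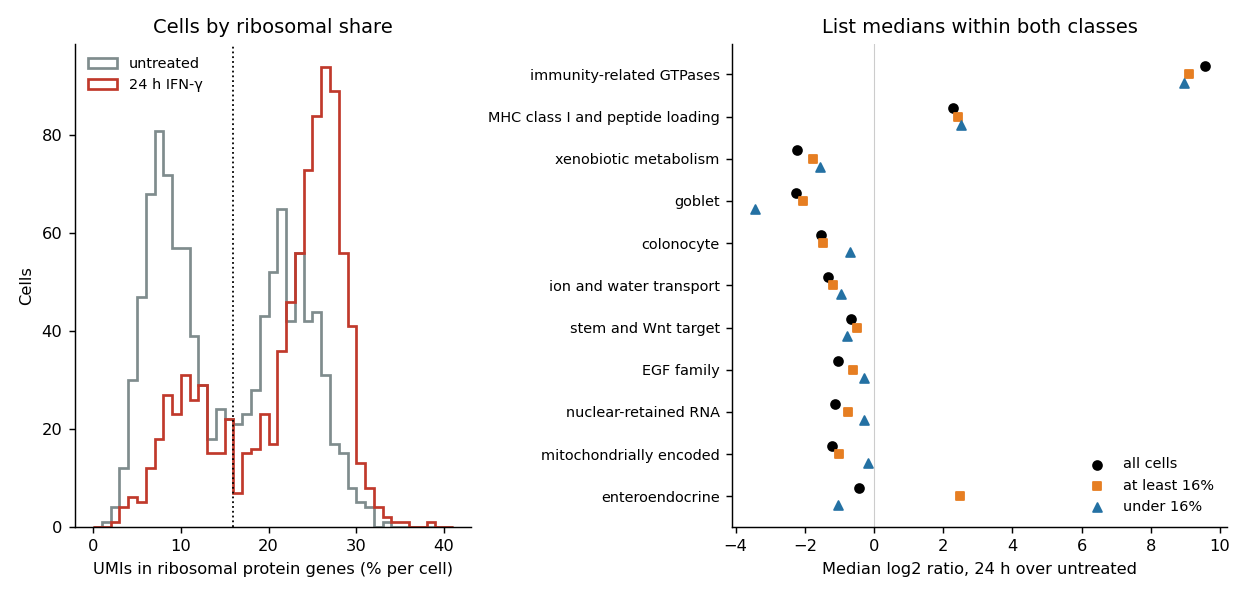
Left, number of cells by the share of their UMIs in ribosomal protein genes, untreated (grey) and 24 h (red), with the limit of 16% dotted. Right, median log2 ratio of 11 gene lists over all cells (circles), within cells of at least 16% (squares) and under 16% (triangles): interferon-induced, xenobiotic and goblet lists keep their side in both classes, the mitochondrial median goes from -1.21 to -0.17 below the limit, and the enteroendocrine median changes sign.

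Some of the genes at least 8-fold higher lay near one another in the genome. Of the 130 genes, 60 (46.2%) fell into 13 blocks of at least 3 genes with gaps of at most 500 kb. The share in blocks was not counted for other genes, so whether 46.2% is high was not tested. Several blocks, such as those of Gbp, Apol and Phf11 genes, hold members of the same gene family. The block in the MHC (chr17:34119541-34743882, GRCm38) held 11 of them, from H2-DMa to C4b, of 25 genes tested there. A block on chromosome 11 (chr11:48861968-49135387) held 7, all 9 tested genes within it being at least 2-fold higher, among them Irgm1, Tgtp1 and Ifi47. Guanylate-binding proteins formed a block of 5 on chromosome 5 (chr5:105014150-105293698) and one of 4 on chromosome 3 (chr3:142493978-142638008), in which every gene tested was higher. Cxcl9 and Cxcl10 lay with Art3 in a block of 3 (chr5:92321347-92414628). Art3, whose annotation spans Cxcl10 on the other strand, had 8 and 122 UMIs (log2 ratio 3.42) and was picked out after its values were seen.

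The share of UMIs in interferon-induced genes was also compared cell by cell. After each cell was thinned to 5000 UMIs, a set of 38 genes (the guanylate-binding proteins, the immunity-related GTPases, MHC class II and the immunoproteasome with Ubd) took a median of 0.74% of UMIs in cells at 24 h (range 0.24 to 2.68%). In untreated cells the median was 0.04%, with a highest cell at 0.60% and the next at 0.30%. Thus 2 of 1058 untreated cells reached the lowest of the 917 treated cells, and 242 treated cells lay at or below the highest untreated cell. Without thinning the medians were 0.752% and 0.0389%. Across 4 equal groups of treated cells by depth, the unthinned median lay between 0.674% and 0.779%. Barcodes under 2000 UMIs, taken as background, held the set at 0.713% of UMIs at 24 h and at 0.0653% in the untreated library, near the level of the cells of their own library. The lowest barcode in the files had 851 UMIs at 24 h and 1390 in the untreated library. Whether these barcodes hold free RNA or cells was not tested.

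**Figure D5:**
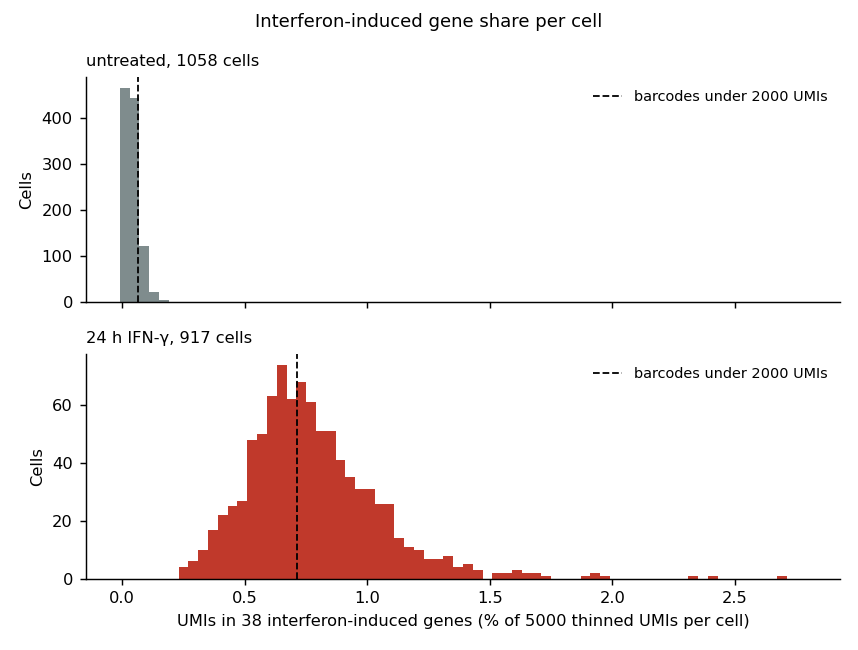
Number of cells by the share of UMIs in 38 interferon-induced genes after thinning to 5000 UMIs, untreated above and 24 h IFN-γ below; dashed lines mark barcodes under 2000 UMIs of the same library. Untreated cells sit at a median of 0.04% and treated cells at 0.74%, with 242 treated cells at or below the highest untreated cell, and the background of each library lies within its own cells.

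Free RNA can give UMIs to cells that do not express a gene, and thinning removes UMIs from cells that do. The shares of cells with a UMI therefore cannot be read as shares of expressing cells. After thinning, Iigp1 was found in 97.1% of cells at 24 h (interval 95.7 to 98.1%) and in 0 of 1058 untreated cells (interval 0 to 0.348%). Before thinning, 1 untreated cell (0.0945%) had it. Cd74 was found in 95.9% and 0.189%, with 99.1% and 1.70% before thinning. B2m went from 27.8% to 88.1% of cells, with 73.2% and 98.9% before thinning.

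UMIs of single genes were spread over treated cells to different degrees. Cxcl9 had a mean of 2.28 thinned UMIs per treated cell, which would put it in 89.8% of cells if spread evenly, but it was found in 55.7% (interval 52.4 to 59.0%), and 1 cell held 100 UMIs. Cxcl10 was found in 76.1%, with 98.3% for an even spread. Ido1 was found in 45.3% against 65.0%. Gbp4, with a mean of 0.737, was found in 48.9% against 52.2%, and Igtp in 82.9% against 87.6%. Gbp2 was found in 84.3% against 93.3%, and Gm4951 in 50.5% against 62.0%. The variance of the thinned UMIs divided by their mean, which is 1 for counting error alone, was 11.7 for Cxcl9, 6.14 for Cxcl10, 3.87 for Iigp1, 3.71 for Ido1, 3.56 for Gbp2 and 1.28 for Gbp4.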

How the data were processed

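The authors sequenced 1 droplet library for each of 3 cultures (untreated, 24 h and 48 h of IFN-γ) and made the deposited counts with Cell Ranger 6.0.1 on mm10, per the submitters' processing notes; the annotation release is not given in the sources used here. The deposited files hold raw UMI counts per gene and barcode, with no normalization. Reads that match near-identical genes equally are usually not counted by such pipelines, which lowers the counts of duplicated genes. Doublets were not removed, as no caller was run.

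A barcode counted as a cell from 5000 UMIs and 400 detected genes upward, if no more than 15% of its UMIs were mitochondrial, which gave 1058 untreated cells and 917 cells at 24 h. UMIs were summed per gene and library, scaled to CPM, and compared as log2 ratios for genes with at least 50 UMIs over both libraries. Genes without an untreated UMI were set to a floor of 3 UMIs. Intervals are exact conditional binomial intervals at 95% for ratios and Clopper-Pearson intervals for shares of cells, and cover counting error only. With 1 library per condition no test was run. The ratio and interval code was tested on simulated data.

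Cells were thinned to 5000 UMIs for values per cell, and barcodes under 2000 UMIs served as background. Motifs were searched in RefSeq promoters (GRCm38.p6), and coordinates and biotypes are from GENCODE on GRCm38. The genes named were the members of 46 lists, the 15 highest and 15 lowest log2 ratios at a mean of 50 CPM or more, the 10 largest gains and losses in CPM, a few genes the study names, and 4 promoters. The members and lists were chosen with earlier results of these data known. Alternatives were the scaling (TMM of edgeR 4.0.16, median of ratios of DESeq2 1.42.0), the limits on cells and genes, and, chosen after seeing the data, the split at 16% ribosomal UMIs and the split into long noncoding and protein-coding genes. Python 3.11.15, SciPy 1.17.1, pandas 2.3.3 and R 4.3.3 were used. The 48 h library was not used in the comparison, and a few genes are not reported here.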

Additional observations from a re-analysis of the deposited data

Results flagged for a closer look

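Barcodes under 2000 UMIs of the 24 h library, which no comparison of cells used, held the 38 interferon-induced genes at 0.713% of UMIs. The same barcodes of the untreated library held them at 0.0653%, and the cells of the 24 h library at 0.784%. The cells of the 48 h library, which were also outside the comparison, held the set at 1.04% of UMIs, against 0.0438% in untreated cells.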

How the results depend on the processing

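With 1 library per condition, no alternative can separate treatment from library preparation, and genes with 1 to 3 untreated UMIs have wide intervals. No paired analysis was possible because each condition has 1 library. TMM gave 741 genes at least 2-fold higher, 1800 lower and a median log2 ratio of all genes of -0.0157, and median-of-ratios scaling gave 769, 1761 and 0.000987. Cells of 20000 to 60000 UMIs gave 1192 lower genes and a median of -0.18. The split at 16% ribosomal UMIs, chosen after seeing the data, gave 1699 lower genes and a median of -0.24 above the limit, and 974 and -0.0754 below it. A minimum of 10 UMIs per gene gave 4526 lower genes and one of 200 gave 1670. Without a minimum, 1959 genes were higher, 6690 lower and the median was -0.51. The log2 ratio of Gm42418 turned from -1.04 to 0.30 below the ribosomal limit, that of mt-Co3 from -0.86 to 0.08, and that of Mki67 from -0.31 to 0.06 with TMM and 0.08 with median-of-ratios scaling. The number of higher genes stayed between 310 and 769 under every alternative with a gene minimum of at least 50 UMIs. The other alternatives (2000 or 10000 UMIs per cell, at most 10% mitochondrial UMIs, means over cells, without the deepest 5% of cells, totals without mitochondrial genes) left the number of higher genes between 406 and 484 and that of lower genes between 2415 and 2957. Fewer genes reach the minimum within a class of cells, so those counts are over fewer genes. The causes of the other differences were not tested.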

Other observations

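Of the 130 genes at least 8-fold higher, 66 were in none of the gene lists, as were 191 of the 215 genes at least 8-fold lower. The genes of this section were chosen after their values were seen. AW112010, an interferon-induced transcript, was at 26.2 CPM untreated and 873 CPM at 24 h (log2 ratio 5.06, interval 4.98 to 5.14). Of 7 measured apolipoprotein L genes 6 were at least 2-fold higher, and Apol10b had 3 and 3995 UMIs (9.87, interval 8.32 to 12.14). All 4 measured genes of the Ifi200 family of DNA sensors, 3 of 4 Phf11 genes and 3 of 5 Schlafen genes were at least 2-fold higher. Ifi204, Ifi211 and Ifi213, with 5, 0 and 0 untreated UMIs, reached the UMI minimum only through the 24 h library. The same holds for Apol10b, Apol6, Phf11a and Slfn1, with 3, 9, 4 and 0 untreated UMIs. Such genes could only come out higher. Over all genes, 2.97% were at least 2-fold higher. Il18bp, which binds and blocks the cytokine IL-18, was at 1.08 and 41.3 CPM (5.25), while Il18 itself was lower. Acod1, which makes itaconate, had 1 and 395 UMIs (8.11, interval 5.63 to 13.42), and Upp1, which splits uridine, was at 6.63 and 91.2 CPM (3.78).

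Among the lower genes, Mptx1, a pentraxin of the gut, was at 52.2 and 0.422 CPM (-6.95). The steroid dehydrogenase Hsd3b3 had 775 and 20 UMIs (-5.79), and Pck1, which makes phosphoenolpyruvate for gluconeogenesis, had 112 and 3 UMIs (-5.74, interval -8.03 to -4.15). Pck1 reached the UMI minimum only through the untreated library, so it could only come out lower.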
